A study of Mus musculus with 6 samples.

Results

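A set of 10 genes of the Notch pathway was followed in mouse hepatocytes that had received the transcription factor Sox4: the receptors Notch1, Notch2 and Notch3, the ligands Jag1, Jag2 and Dll4, the nuclear factor Rbpj and the target genes Hes1, Hey1 and Heyl. They were picked by gene symbol for their place in the pathway, with earlier results of these data known. All 10 were found among the 53599 symbols of the count table. Hepatocyte RNA from 3 mice given the Sox4 vector and 3 mice given empty vector (EV) was sequenced 4 days after injection. All mice were male, 4 to 8 weeks of age, on a C57BL/6J background and homozygous for a Rosa26 allele in which Cas9 and EGFP are silent until Cre removes a stop cassette (Rosa-LSL-Cas9-EGFP). The labels name the genotype of the EV group as WT and that of the other group as Sox4. EV mice received an AAV8 virus carrying Cre (AAV8-TBG-Cre in the labels), and Sox4 mice received AAV8 carrying HA-tagged Sox4 joined to Cre by a self-cleaving peptide. Both vectors used the hepatocyte promoter TBG, so Cas9 and EGFP were switched on in both groups, and Sox4 came from the virus and not from its own promoter. The study's methods define its EV as a vector that also holds an sgRNA backbone under a U6 promoter, with no target gene named, while the Sox4 vector was assembled on another AAV backbone. Cells were isolated by liver perfusion with digestive enzymes and density separation on Percoll, and no sort is described for these samples, so RNA of other liver cells could be carried along.

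Notch signaling passes between touching cells. A Jagged or Delta ligand on one cell pulls on a Notch receptor of its neighbor, proteases then release the inner part of the receptor, and this part enters the nucleus and joins RBPJ, which turns from a repressor into an activator of HES and HEY genes. In the liver, Jag1 and Notch2 are best known for building bile ducts, and Notch activity in adult hepatocytes is known to push them toward a biliary identity.

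Of the 10 genes, 5 rose in Sox4 hepatocytes, none fell, 1 was tested and did not pass, and 4 had too few counts to be tested. Hes1 rose 3.03 on the log2 scale, Jag1 2.74, Rbpj 1.50 and Notch2 1.01, and Notch3 went from a single count in all EV libraries to 57 in all Sox4 libraries. These counts stand against a wide response, since 55.1% of the 12691 tested genes passed an adjusted p of 0.05, 29.0% of them higher and 26.0% of them lower in Sox4. Notch3 passed the filter on low counts only through its Sox4 libraries, and the other 5 tested members were counted well in both groups. Every Sox4 library was above every EV library for 4 of these 5, against 33.1% of all tested genes. Their median log2 change was 1.50, against 0.04 over all tested genes. The members were chosen with earlier results of these data known, so these comparisons are a description and not a test. As these are bulk samples, fewer cells of a type and less RNA per cell cannot be told apart in any of these values.

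Total counts ranged from 15090629 to 16964860 per library. Levels are given as CPM, counts scaled to libraries of 1e06 after correction by trimmed mean of M-values (TMM), which made the effective Sox4 libraries 1.48 times those of EV, while the totals differed by 1.07 times. With library size alone, the median change of all genes moved to 0.51 and the share of called genes that were higher went from 52.7% to 79.9%, and each member below that rose also rose under that scaling. The delivered gene had 2, 0 and 3 counts in the EV libraries and 21697, 15097 and 11816 in the Sox4 libraries, a ratio of summed levels of 6549 (exact 95% counting interval 2806 to 20169). The 13 hepatocyte markers, led by Alb, ranged in sum from 145661 to 174985 CPM with EV and from 106292 to 118780 CPM with Sox4. Of these 13 genes, 10 were lower and none higher in Sox4, although with library size alone the sums of the groups overlapped.

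Promoter sequences are shown for the members that rose, because RBPJ, the pathway's own nuclear factor, and SOX proteins each have a short DNA core that can be searched for in them. RefSeq windows on GRCm38.p6 matched 7 of the 10 members, and those of Hes1, Hey1 and Heyl were not matched. Each window below holds the 250 bases before the annotated start, 5′ to 3′ on the gene's strand, in lower case with motif matches in capitals. The windows are chr3:98013288-98013537 on the plus strand for Notch2, chr17:32166891-32167140 on the minus strand for Notch3, chr2:137116521-137116770 on the minus strand for Jag1 and chr5:53590096-53590345 on the plus strand for the first of the overlapping Rbpj windows. The motifs searched on both strands were TGGGAA, the core bound by RBPJ, and the SOX cores ACAAAG or its variant, spelled ACAATG. No RBPJ and SOX match shared bases, and a match on the other strand appears as the reverse complement of these letters.
Notch2: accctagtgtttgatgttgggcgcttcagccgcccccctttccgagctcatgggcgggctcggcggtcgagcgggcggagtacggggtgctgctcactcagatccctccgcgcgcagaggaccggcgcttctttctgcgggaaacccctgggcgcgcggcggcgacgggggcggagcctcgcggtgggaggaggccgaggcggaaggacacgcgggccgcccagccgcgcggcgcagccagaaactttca
Notch3: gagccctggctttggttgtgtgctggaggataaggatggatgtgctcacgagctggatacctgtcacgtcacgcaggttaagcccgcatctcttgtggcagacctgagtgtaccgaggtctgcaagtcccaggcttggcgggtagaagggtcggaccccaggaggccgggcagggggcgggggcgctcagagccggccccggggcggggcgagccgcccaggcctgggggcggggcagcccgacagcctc
Jag1: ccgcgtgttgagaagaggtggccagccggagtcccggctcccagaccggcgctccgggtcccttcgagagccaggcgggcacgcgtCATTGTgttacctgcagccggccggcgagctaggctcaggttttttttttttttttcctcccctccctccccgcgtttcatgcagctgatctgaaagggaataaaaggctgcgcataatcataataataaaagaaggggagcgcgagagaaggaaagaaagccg
Rbpj: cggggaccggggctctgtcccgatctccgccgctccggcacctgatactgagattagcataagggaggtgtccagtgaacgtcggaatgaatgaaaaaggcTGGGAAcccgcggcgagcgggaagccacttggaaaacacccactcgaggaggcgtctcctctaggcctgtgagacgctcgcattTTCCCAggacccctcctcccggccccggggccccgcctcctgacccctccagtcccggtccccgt
The first Rbpj window held the RBPJ core at 149 and 65 bases before the start, and the other Rbpj window, which shares bases with it, held it once at 205 bases. The Jag1 window held 1 SOX core at 164 bases before the start. Neither motif was found in the windows of Notch1, Notch2, Notch3, Jag2 and Dll4. Over all 32851 RefSeq windows of this length, 21.6% held the RBPJ core and 25.2% held a SOX core, so these matches are a description of the letters and not of binding.

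Among the receptors, Notch2, the receptor most tied to bile duct formation, rose in all Sox4 libraries. It stood at 61.1, 56.0 and 47.5 CPM in the EV libraries and at 109, 108 and 113 CPM in the Sox4 libraries. The Sox4 values lay close together and far above the highest EV value. Means were 54.9 ± 6.87 CPM in EV and 110.1 ± 2.65 CPM in Sox4 (SD, n = 3), a log2 change of 1.01 (SE 0.11, 95% interval 0.71 to 1.31, edgeR adjusted p = 8.34e-05). Of its annotated exon bases, 5.02% are shared with Gm42820 on the same strand, so some reads could belong to either.

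Notch1, a receptor widely used in both blood vessels and epithelia, did not pass the test. Its levels were 68.3, 46.6 and 45.6 CPM in EV and 132, 64.5 and 69.6 CPM in Sox4. Sox4 replicate 1 stood far above the other libraries of its group, and the remaining Sox4 values lay around that of EV replicate 1, so the groups overlapped. The log2 change was 0.73 (SE 0.38, 95% interval -0.38 to 1.73, edgeR adjusted p = 0.0776). Without Sox4 replicate 1 it was 0.32 (edgeR adjusted p = 0.152), and without Sox4 replicate 2 it was 0.92 and passed (edgeR adjusted p = 0.0355). The call also changed with the tool or scaling, with an adjusted p of 0.0177 by the DESeq2 Wald test at a log2 change of 0.72, 0.0120 by edgeR with library size alone at 1.20, and 0.00613 by edgeR without a filter on low counts at 0.77. Opposite-strand genes cover 10.4% of its exon bases, and whether counting used strand is not given in the sources used here.

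Notch3, a receptor best known from the mural cells that wrap blood vessels, was nearly absent from EV. It had 0, 1 and 0 counts in EV and 25, 11 and 21 counts in Sox4, or 1.25, 0.562 and 1.06 CPM in the latter. All Sox4 libraries lay above the EV libraries, though the levels remained low. Gm17276 on the opposite strand covers 6.03% of the Notch3 exon bases. The ratio of summed levels was 38.4 with an exact 95% counting interval of 6.62 to 1543, and the edgeR adjusted p was 0.00131. The only EV count came from replicate 2, without which the fitted log2 change moved from 4.89 to 7.05. Rgs5, a mural cell marker looked at after its values were seen, had 3, 8 and 22 counts in EV and 41, 86 and 145 in Sox4. Sox4 replicate 1, highest in Notch3, was lowest of its group in Rgs5. Reln, listed below with the same stellate and mural markers, had 92, 298 and 517 counts in EV and 2522, 2291 and 1003 in Sox4. It too was higher in every Sox4 library, but the order of its Sox4 libraries was the reverse, with replicate 1 highest. The cell source of the Notch3 counts was not tested.

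Of the ligands, Jag1 was the one found at more than trace levels. Jag1 is the ligand whose loss causes too few bile ducts. Its levels were 1.39, 2.51 and 2.18 CPM in EV and 12.0, 11.4 and 17.3 CPM in Sox4. The lowest Sox4 library was several-fold above the highest EV library. Means of 2.02 ± 0.58 and 13.6 ± 3.23 CPM (SD, n = 3) gave a log2 change of 2.74 (SE 0.31, 95% interval 1.84 to 3.54, edgeR adjusted p = 2.75e-05). Its counts were 18, 33 and 30 in EV and 240, 223 and 341 in Sox4, and its window with the SOX core is printed above.

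Jag2 and Dll4 stayed at or near the limit of counting. Jag2, a Jagged ligand close to Jag1, had 2, 0 and 1 counts in EV and 2, 1 and 2 in Sox4, all at or under the floor of 3 counts per library, so no fold is given. That floor lies between 0.218 and 0.231 CPM for EV and between 0.150 and 0.153 CPM for Sox4, and a difference under it was not detectable at this depth. Dll4, a Delta ligand typical of endothelium, had 0, 0 and 1 counts in EV and 3, 0 and 8 in Sox4. The groups overlapped, and the ratio of summed levels was 7.41 with an exact 95% counting interval of 1.08 to 319 that covers counting error only.

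Rbpj, which carries the receptor fragment on DNA, rose in all Sox4 libraries. It stood at 14.8, 17.8 and 18.7 CPM in EV and at 43.2, 52.2 and 49.6 CPM in Sox4. No library of a group came near the other group. Means of 17.1 ± 2.04 and 48.3 ± 4.66 CPM (SD, n = 3) gave a log2 change of 1.50 (SE 0.13, 95% interval 1.13 to 1.86, edgeR adjusted p = 1.59e-05). Rbpj has processed copies in the genome that could take or give reads, of which Rbpj-ps1 was at 0 in every library and Rbpj-ps3 had 1, 0 and 2 counts in EV and 7, 5 and 10 in Sox4, against 192 to 257 and 861 to 1022 for Rbpj itself.

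Among the targets, Hes1 had the highest fitted change of the 5 members counted in every library, with Jag1 close to it. Hes1 encodes a repressor that Notch switches on in many tissues and that is needed for biliary development. It had 11.0, 8.88 and 16.3 CPM in EV and 117, 110 and 69.4 CPM in Sox4. Sox4 replicate 3 was lower than the other libraries of its group and still several-fold above the highest EV library. Means of 12.1 ± 3.80 and 98.8 ± 25.7 CPM (SD, n = 3) gave a log2 change of 3.03 (SE 0.35, 95% interval 2.07 to 3.99, edgeR adjusted p = 3.60e-05).

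The HEY targets were much scarcer. Hey1, a repressor used mainly in vessels and heart, had no count in any EV library and 10, 12 and 17 counts in Sox4, so the groups did not overlap. Against the floor of 3 counts per library in EV, its mean of 0.659 CPM in Sox4 was at least 2.92-fold higher. It did not pass the filter on low counts, and with no filter its edgeR adjusted p was 6.08e-05. Heyl, a related factor prominent in mural cells, had 0, 3 and 3 counts in EV and 3, 2 and 12 in Sox4. Its groups overlapped, only Sox4 replicate 3 exceeded the floor, and the ratio of summed levels was 1.91 with an exact 95% counting interval of 0.718 to 5.91.

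**Figure D1:**
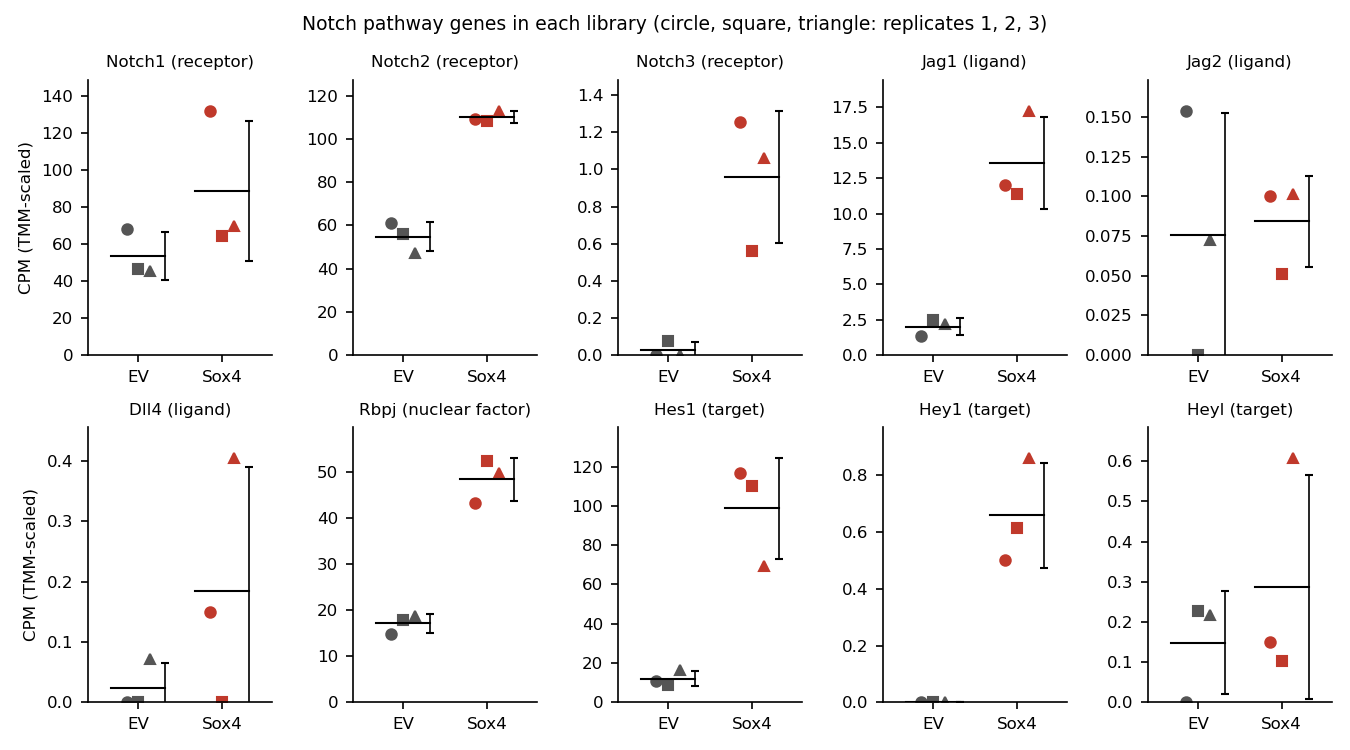
Level of each of the 10 genes in CPM (y axis, linear, from 0, its own range in each panel) in the 3 EV and 3 Sox4 libraries, with the group mean as a line and the SD as a bar. All Sox4 points lie above all EV points for Notch2, Notch3, Jag1, Rbpj, Hes1 and Hey1, while Notch1, Jag2, Dll4 and Heyl overlap.

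Levels of different genes were compared only as CPM per kilobase of exon, with exon lengths taken from GENCODE M21. Each length joins the exons of all annotated transcripts of a gene, and the order with lengths of single transcripts was not examined. In EV the order was Hes1 (5.92 CPM per kilobase), Notch2 (5.09), Notch1 (3.76), Rbpj (1.34) and Jag1 (0.347), with the remaining members at 0.029 or less. Hes1 overlapped Notch2 in EV, and Notch2 overlapped Notch1, so these neighbors are not set apart. In Sox4 the order began with Hes1 (48.5 CPM per kilobase), Notch2 (10.2), Notch1 (6.24), Rbpj (3.79) and Jag1 (2.33), and no neighbors in this part of the order overlapped. Hey1 (0.202 CPM per kilobase) and Notch3 (0.119) followed and overlapped each other, and then came Heyl (0.056), Dll4 (0.048) and Jag2 (0.012). Notch3 overlapped Heyl and Dll4, Heyl overlapped Dll4, and Dll4 overlapped Jag2, so this end of the order is not resolved. Hes1 thus overlapped Notch2 in EV and lay above all other members in Sox4.

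Whether the members moved by different amounts was asked through log2 ratios of gene pairs within a library, since such a ratio does not depend on scaling. All 10 pairs of the 5 members counted in every library were compared by an exact two-sided permutation test, whose smallest p is 0.1 with 3 libraries against 3. In 7 pairs the groups did not overlap, and each gave that smallest p (0.143 adjusted over the 10 pairs), so no pair could pass 0.05. The log2 ratios of Notch1, Notch2 and Rbpj to Hes1 differed by -2.36, -2.03 and -1.54, Sox4 minus EV, so that Hes1 took a larger share in every Sox4 library. The log2 ratios of Notch1 and Notch2 to Jag1 differed by -2.06 and -1.72, that of Jag1 to Rbpj by 1.24 and that of Notch2 to Rbpj by -0.49. The ratios overlapped between groups for Jag1 to Hes1 (log2 difference -0.30, SE 0.56, exact permutation p = 0.5), Notch1 to Notch2 (-0.34, SE 0.36, exact permutation p = 0.4) and Notch1 to Rbpj (-0.82, SE 0.50, exact permutation p = 0.3). For Jag1 to Hes1 the difference was 0.067 without EV replicate 2.

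**Figure D2:**
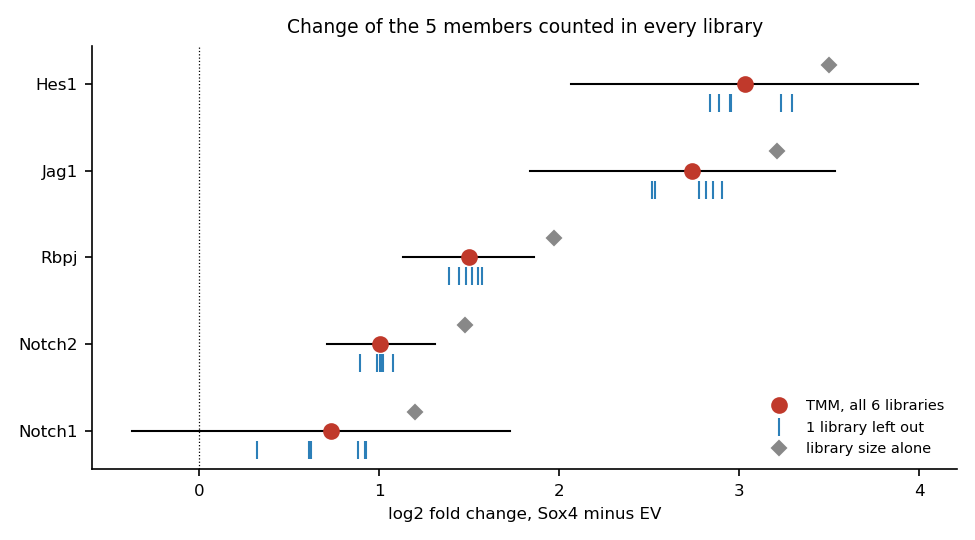
Log2 fold change, Sox4 minus EV (x axis), of the 5 members counted in every library, with the 95% interval as a line, the values with 1 library left out as ticks and the value with library size alone as a diamond. The intervals of Hes1, Jag1, Rbpj and Notch2 lie above 0 and that of Notch1 runs from -0.38 to 1.73.

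Since vessel, mural, duct and immune cells of the liver also express Notch genes, markers of these cells were summed in each library. The counts of markers that rose or fell stand beside 29.0% and 26.0% of all tested genes. The 20 endothelial markers gave sums between 37.4 and 66.6 CPM in EV that overlapped those of 41.0 to 88.2 CPM in Sox4, and of 18 tested 4 rose and 1 fell. The 16 stellate and mural markers gave 11.7 to 54.8 CPM in EV against 112.5 to 160.5 CPM in Sox4, and 6 of 8 tested rose. Reln exceeded the other markers of the list together in every library but Sox4 replicate 3, and without it the ranges were 4.62 to 17.2 CPM and 16.6 to 61.7 CPM, which overlapped. The Kupffer sum was 15.3 to 35.1 CPM in EV, below the 37.3 to 82.2 CPM of Sox4, with 6 of 12 tested genes higher. The Kupffer sum was thus higher in every Sox4 library than in every EV library, as were 33.1% of all tested genes. The stellate and mural sum was so only with Reln included, although the log2 ratio of its group means was 2.08 with Reln and 1.97 without it.

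Cholangiocyte markers, which duct cells and reprogrammed hepatocytes share, gave 17.6 to 24.4 CPM in EV against 40.3 to 60.5 CPM in Sox4, with 3 of 5 tested genes higher and 1 lower. Krt7 and Krt19, the keratins that define duct cells, were at 0 in every EV library, with 2, 1 and 7 counts of Krt7 and 9, 2 and 7 counts of Krt19 in Sox4. Lymphoid and neutrophil markers gave 1.23 to 3.04 CPM in EV against 1.80 to 5.11 CPM in Sox4, with Ms4a1 at 0 throughout, and the only tested gene of that list did not pass. Erythroid markers gave 93.0 to 126.2 CPM in EV against 4.97 to 15.5 CPM in Sox4, nearly all of it Alas2. Alas2, an enzyme of heme synthesis, was the only tested gene of that list and fell. Hba-a1, of the same list, had 2, 2 and 2 counts in EV and 4, 11 and 8 in Sox4. Hbb-bs had 3, 0 and 5 counts in EV and 13, 22 and 9 in Sox4, so the lower sum came from Alas2.

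Within the Sox4 group, replicate 1 had the lowest endothelial (41.0 CPM) and Kupffer (37.3 CPM) sums and the highest Hes1, Notch1 and Notch3. Replicate 3 had the highest endothelial (88.2 CPM) and Kupffer (82.2 CPM) sums, the lowest Hes1 and the highest Notch2, Jag1, Dll4, Hey1 and Heyl. Sox4 itself stood at 1088, 771 and 599 CPM in replicates 1, 2 and 3. The part of other cell types, or of the level of Sox4, in the values of the 10 genes was not tested.

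**Figure D3:**
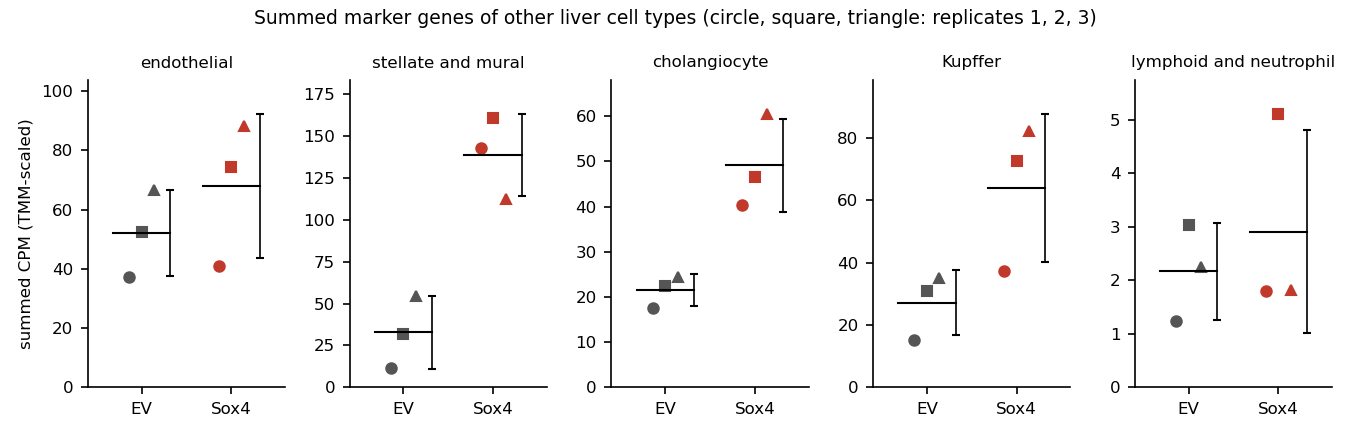
Summed CPM of the markers of 5 other liver cell types (y axis, linear, from 0) in the 3 EV and 3 Sox4 libraries, with the mean as a line and the SD as a bar. Stellate and mural (with Reln included), cholangiocyte and Kupffer sums are higher in every Sox4 library, while endothelial sums overlap and Sox4 replicate 1 sits at 41.0 CPM.

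The rest of the pathway was described with 70 further genes in 9 groups by role, also chosen with earlier results of these data known. Of these, 54 were tested, 18 rose, 8 fell and 28 did not pass, so 33.3% of those tested rose and 14.8% fell, beside 29.0% and 26.0% of all tested genes. Their median log2 change was 0.20. The counts by role below stand beside these same shares of all tested genes. With library size alone 32 rose and 4 fell. Genes with a log2 change under 1 in size named from here on, other than Dll1, Kat2b, Ep300, Hes6 and Sox9, were chosen after their values were seen.

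**Figure D4:**
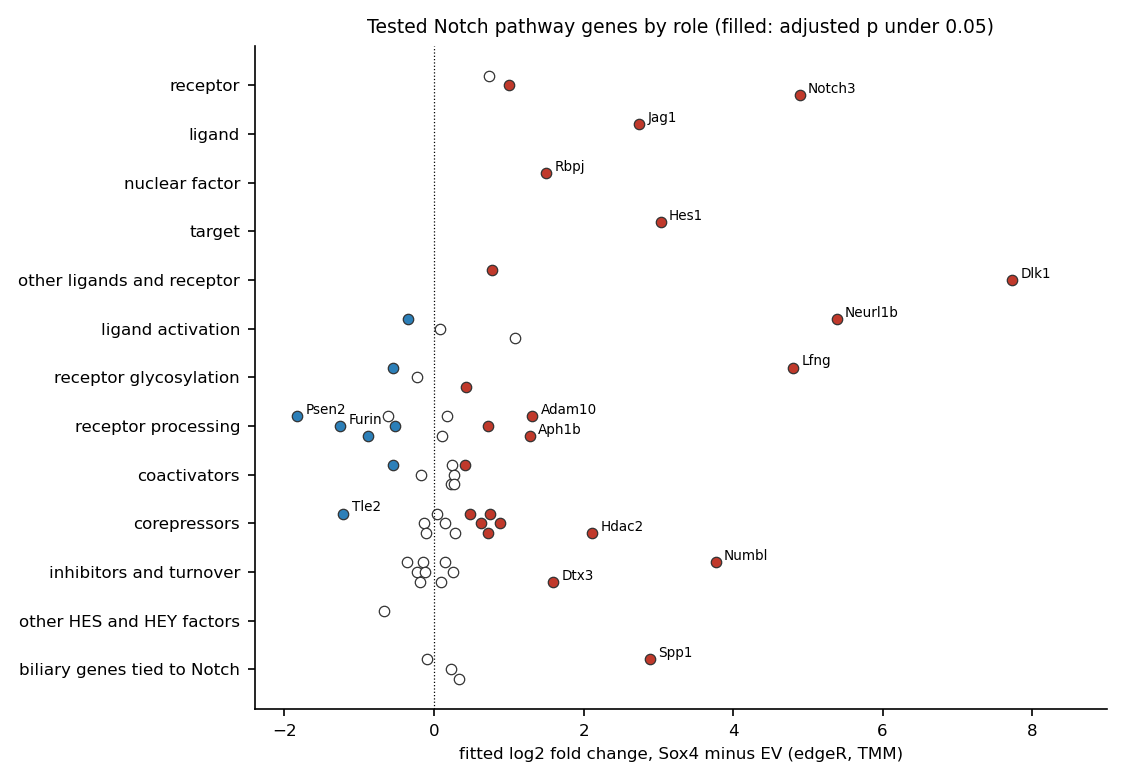
Fitted log2 fold change, Sox4 minus EV (x axis), of each tested Notch pathway gene, the 6 tested members in the top 4 lines and the 54 other genes below by role, filled where the edgeR adjusted p was under 0.05. All 6 tested members lie to the right of 0, with Hes1 the only target and Jag1 the only ligand among them, while receptor processing genes lie on both sides.

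Both tested genes among the other ligands and receptors rose. Dlk1, a Delta-like protein of fetal liver that lacks the domain needed to activate Notch in the usual way, had 0, 0 and 1 counts in EV and 135, 122 and 153 in Sox4. The ratio of summed levels was 276 (exact 95% counting interval 49.3 to 10934, edgeR adjusted p = 3.80e-06), and without EV replicate 3, the source of the only EV count, the fitted log2 change went from 7.73 to 9.88. Dll1, a Delta ligand, had 56, 54 and 35 counts in EV and 132, 97 and 142 in Sox4, a log2 change of 0.78 (edgeR adjusted p = 0.0328). Leaving out a library ended that call for EV replicate 2 (adjusted p = 0.0587) and 3 (0.113) and for Sox4 replicate 1 (0.0635) and 3 (0.0959). Notch4, the endothelial receptor, was not tested, with 2, 6 and 5 counts in EV and 11, 3 and 15 in Sox4, and Dll3 had 3 counts in Sox4 replicate 1 and none elsewhere.

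Among enzymes that prepare ligand and receptor, each group held 1 gene that went from almost no EV counts to many. Neurl1b, a ubiquitin ligase that drives ligand uptake, had 0, 1 and 1 counts in EV and 48, 67 and 27 in Sox4, a ratio of summed levels of 47.8 (exact 95% counting interval 13.0 to 399, edgeR adjusted p = 1.88e-04). Of the 4 tested ligand activation genes it was the only one that rose. Mib2, another such ligase, fell by 0.34 on the log2 scale (edgeR adjusted p = 0.0368), and this changed to 0.13 with library size alone. The Mib2 call was lost without any library other than Sox4 replicate 1 (adjusted p from 0.0606 to 0.111).

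Lfng, a Fringe enzyme that adds sugars to Notch and so shifts its response from Jagged toward Delta ligands, had 0, 1 and 2 counts in EV and 55, 49 and 32 in Sox4. The ratio of summed levels was 30.5 (exact 95% counting interval 10.2 to 149.9, edgeR adjusted p = 1.85e-04), and without EV replicate 3 the fitted log2 change went from 4.80 to 5.64. Dlk1, Neurl1b and Lfng passed the filter through their Sox4 libraries. Of the other glycosylation genes, Poglut1, which adds glucose to the receptor, changed by 0.43 on the log2 scale (edgeR adjusted p = 0.0321), a call lost without any library other than Sox4 replicate 1 (adjusted p from 0.0701 to 0.122). Rfng, another Fringe enzyme, changed by -0.55 (edgeR adjusted p = 0.0205) and by -0.08 with library size alone (adjusted p = 0.694). Its call was also lost without EV replicate 1 (adjusted p = 0.0698), Sox4 replicate 2 (0.0801) or Sox4 replicate 3 (0.0514).

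Genes of receptor processing, the proteases and their partner subunits, went in both directions, as 3 of 10 rose and 4 fell beside 29.0% and 26.0% of all tested genes. Furin, which cuts the receptor precursor, had 344, 347 and 312 CPM in EV and 151, 133 and 137 CPM in Sox4, and fell by 1.25 on the log2 scale (edgeR adjusted p = 2.37e-05). Adam10, which makes the outer cut once ligand is bound, had 28.6, 32.7 and 31.6 CPM in EV and 70.4, 79.3 and 81.4 CPM in Sox4, a log2 change of 1.31 (edgeR adjusted p = 1.20e-05). So the enzyme of the first cut was lower and that of the ligand-dependent cut higher, with no overlap between groups for either.

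Gamma-secretase, the complex that makes the last cut, was split as well. Psen2, a catalytic subunit, had 336, 272 and 212 CPM in EV and 102, 71.8 and 57.0 CPM in Sox4, and fell by 1.83 on the log2 scale (edgeR adjusted p = 2.39e-04). The scaffold subunits went apart, as Aph1b rose by 1.28 (edgeR adjusted p = 2.77e-04) and Aph1a fell by 0.88 (edgeR adjusted p = 4.69e-04). Ncstn, the subunit that receives the substrate, rose by 0.72 (edgeR adjusted p = 6.64e-04). Psenen, the smallest subunit, fell by 0.52 (edgeR adjusted p = 0.00797), a call lost with library size alone (-0.05, adjusted p = 0.746).

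The nuclear partners of Rbpj changed in part. Of 7 tested coactivators 1 rose and 1 fell, namely Ep300, a histone acetyltransferase (log2 change 0.41, edgeR adjusted p = 0.00548), and Kat2b, another (-0.55, edgeR adjusted p = 0.00666, but -0.08 and adjusted p = 0.617 with library size alone). Of 12 tested corepressors 6 rose and 1 fell, beside 29.0% and 26.0% of all tested genes. Hdac2, a histone deacetylase, had 25.4, 26.3 and 25.0 CPM in EV and 107, 109 and 115 CPM in Sox4, a log2 change of 2.11 (edgeR adjusted p = 5.90e-07) with little spread in either group. Tle2, a Groucho corepressor, fell by 1.21 on the log2 scale (edgeR adjusted p = 0.00213). Kdm5a, a histone demethylase, rose by 0.88, Tle1 and Tle3, Groucho relatives of Tle2, by 0.72 and 0.75, Hdac1 by 0.63 and Ctbp1, which recruits deacetylases, by 0.49. The Tle3 call was lost on leaving out replicate 2 or 3 of EV or replicate 1 or 2 of Sox4 (edgeR adjusted p from 0.0872 to 0.133).

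Of 10 tested inhibitors and turnover genes, 2 rose and none fell. Numbl, a relative of the Notch inhibitor Numb, had 1, 4 and 4 counts in EV and 70, 68 and 49 in Sox4, a log2 change of 3.76 (edgeR adjusted p = 1.27e-04), and it too passed the filter through its Sox4 libraries. Dtx3, a ubiquitin ligase of the Deltex family, had 18, 22 and 31 counts in EV and 130, 106 and 82 in Sox4, a log2 change of 1.59 (edgeR adjusted p = 0.00137). Nrarp, a feedback inhibitor that Notch itself switches on in many tissues, had no EV count and 1, 2 and 3 counts in Sox4, at or under the floor in every library.

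Beside Hes1, the other HES and HEY genes were at or near 0 or did not pass. Hes2, Hes3, Hes5 and Hes7 were at 0 in every library, which allows up to 3 counts in each, and Hey2 had 1, 1 and 0 counts in EV and none in Sox4. Hes6, which is not a usual Notch target, had 110, 58.6 and 62.5 CPM in EV and 69.1, 43.3 and 32.9 CPM in Sox4, and these groups overlapped. Its log2 difference was -0.67 (edgeR adjusted p = 0.143), past the threshold by the DESeq2 Wald test (-0.68, adjusted p = 0.0416).

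Of 4 biliary genes tied to Notch, 1 rose. Spp1, which encodes osteopontin of duct cells, had 4.85, 4.02 and 6.83 CPM in EV and 39.7, 41.4 and 35.2 CPM in Sox4, a log2 change of 2.89 (edgeR adjusted p = 2.99e-06). Sox9, a duct cell regulator that Notch activates in liver, had 16.9, 5.92 and 9.44 CPM in EV and 15.8, 12.6 and 9.27 CPM in Sox4. Its groups overlapped fully, with a log2 difference of 0.23 (edgeR adjusted p = 0.618) that became -0.082 without EV replicate 2. Among the target and Notch-tied genes, then, Hes1 and Spp1 passed the test, Hey1 went from none to a few counts, and Sox9 and Heyl overlapped between groups.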

How the data were processed

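Raw counts per gene were deposited by the authors, who aligned reads to GRCm39 with STAR and counted them with featureCounts (2.7.10b and 2.0.1 in the submitters' processing notes). Annotation release, strand setting and treatment of reads with several matches are not given in the sources used here. The authors also deposited a normalized signal, counts divided by DESeq2 size factors, which were equal to those recomputed here.

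Groups and replicate numbers came from the sample labels. The members and gene lists were chosen with earlier results of these data known. Genes were kept with filterByExpr (minimum count 10, minimum total 15), which left 12691 of the 24036 genes with a count. Sox4 was compared with EV by edgeR 4.0.16 (R 4.3.3), with TMM scaling, robust quasi-likelihood tests and Benjamini-Hochberg adjustment over all tested genes, threshold 0.05. Fold changes are from this fit, while the SE and 95% interval were computed on the groups' mean log2 CPM (prior count 2), so an interval need not be centered on its fold change. The p-values measure the spread between the 3 libraries of each group. Ratios of summed levels carry exact binomial intervals, which, like the floor of 3 counts, cover counting error only, since PCR copies are not independent molecules. Replicates differed beyond counting noise (chi-square per degree of freedom 19.3 to 69.8). Gene pairs were tested by exact permutation (scipy 1.17.1).

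Named other pathway genes were those past the threshold with a log2 change of at least 1, otherwise the 2 of highest level in their group, and 8 named whatever their values. A further 11, and Rgs5, were chosen after their values were seen. Some listed genes are counted in list totals but not reported here. Alternatives were other scalings, filters, limma 3.58.1, DESeq2 1.42.0, a replicate block and leaving out each library. Exon lengths and overlaps are from GENCODE M21 and promoters from RefSeq, both on GRCm38 and not on the build of the counts. The script was tested on simulated data.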

Additional observations from a re-analysis of the deposited data

How the results depend on the processing

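Over the 8 alternatives of scaling, tool, filter and block and the 6 fits that left out 1 library, 4 to 7 members were called, all higher, against 5 in the report, and 22 to 36 of the other pathway genes against 26. Leaving out 1 library gave 5 to 6 members, 22 to 25 other genes and 6027 to 7269 of all genes. Without Sox4 replicate 2 the added member was Notch1. In the other such fits with 6 members Notch1 did not pass, and the added member had too few counts to be tested in the report's fit. The 4 were found with a mean count of at least 50, which removed Notch3 from testing, and the 7 with no filter, which added Notch1 and Hey1. Of 83 values of single members so obtained, 78 had the same sign and the same call, 5 passed where the report's did not, all of Notch1, and none turned. Of 389 values of the other named genes, 360 kept both, 25 lost the call, 2 gained it and 2 turned, namely Mib2 with library size alone (0.13) and Sox9 without EV replicate 2 (-0.082, and -0.082 to 0.69 over the fits that left out 1 library). Of 70 pair ratios only Jag1 to Hes1 turned, at 0.067 without EV replicate 2 (-0.72 to 0.067 over such fits). Why these turned was not tested. Whether same-numbered EV and Sox4 libraries share more than a number is not given in the labels. Their deviations correlated at 0.27, -0.09 and 0.13, and those of libraries with different numbers at -0.27 to 0.18. So few values cannot settle whether the libraries were paired. With the replicate block 7362 genes, 6 members and 29 other pathway genes were called, with Notch1 at 0.68 (edgeR adjusted p = 9.14e-04) and Hes6 at -0.68 (edgeR adjusted p = 8.77e-04). Leaving out Reln from the stellate and mural list was chosen after seeing the data. Depth limits Jag2, Dll4, Heyl, Nrarp and Dll3, which lay at or near 3 counts in most libraries.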
